A study of Mus musculus with 12 samples.

Results

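The 37 genes described here act in DNA repair and in the DNA damage checkpoint, and were chosen by name from the pathways of recombination, Fanconi anemia, mismatch, excision and end joining repair and checkpoint signaling, with every probe set annotated to them. Of these 37 genes, 33 had at least 1 probe set, out of 12393 genes on the array, and the 33 genes had 59 probe sets between them. The genes Xrcc2, Fancd2, Polq and Clspn had none on this array and have no values.

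RNA was hybridised to 12 one-colour Affymetrix expression arrays, 3 in each of 4 groups. The first group held mammary glands of female NMRI mice on lactation day 1. The second held mammary glands of female transgenic WAP-SVT/t mice, also of the NMRI strain and on lactation day 1. Their transgene places the large T and small t antigens of the virus SV40 under the Wap promoter, which is active in milk-producing cells, and per the labels mammary epithelial cells make the antigens. The third group held 3 breast cancers of female WAP-SVT/t mice of the same strain. The last group held 3 breast cancer cell lines with 1 array each: ME-A, the line ME-B, called revertant in the labels, and ME-B-T/t, called retransformed. Neither the ages of the mice nor any pooling of animals is stated in the labels. The p-values below measure only the spread between these arrays.

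Homologous recombination mends a broken chromosome by copying the sister chromatid, and is therefore used mainly in the S and G2 phases of the cell cycle. Excision repair, which cuts out damaged bases or nucleotides, and end joining, which seals broken ends directly, work throughout the cycle. Checkpoint kinases and their loading factors sense damaged or stalled DNA and delay the cycle, and both the retinoblastoma protein, which restrains entry into S phase, and p53, which responds to damage, are bound by large T antigen.

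Values are the authors' signals in intensity units, scaled to a common trimmed mean, with signals under 57.5 set to that floor before taking log2. A gene was tested in the tissue arrays when its signal exceeded 139.9, the median of all signals, on at least 3 arrays. Of the 33 genes, 28 passed this filter in the tissues. Bard1, which partners Brca1, the strand-annealing factor Rad52, the damage-recognition factor Xpa, the Ku subunit Xrcc5 and the checkpoint clamp subunit Rad1 did not pass. In the tissues the signal of Bard1 ran from 3.20 to 9.09, that of Rad52 from 70.3 to 108, that of Xpa from 96.6 to 217, that of Xrcc5 from 60.01 to 263, and that of Rad1 from 49.6 to 122. A gene is called changed at a limma p-value under 0.05 after Benjamini-Hochberg adjustment over all genes tested.

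Across the arrays the ratio of the 3' to the 5' Gapdh control probe sets, a sign of RNA integrity, ran from 0.75 to 40.3. It was 2.28 to 40.3 in the NMRI glands, 2.49 to 22.5 in the transgenic glands, 0.97 to 5.63 in the tumors and 0.75 to 0.95 in the lines. The mean log2 signal of 5 measured proliferation markers (of Mki67, Top2a, Pcna, Mcm5, Ccnb1 and Cdk1) was 7.11 to 7.88 in the NMRI glands, 11.0 to 11.6 in the transgenic glands, 11.0 to 11.5 in the tumors and 11.0 to 11.4 in the lines. All 5 were called higher in transgenic glands and in tumors than in NMRI glands. Luminal epithelial markers averaged 11.0 to 12.1 in every tissue array and 11.7 in ME-A, but 6.32 in the ME-B line and 6.32 in ME-B-T/t. Of these markers, Krt18 and Epcam were at the floor in 2 of the 12 arrays.

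Stretches of 5 promoters are shown first, because they set a few of the genes that rose in the transgenic glands beside one that did not. They are the 250 bases before the annotated start, from RefSeq on mouse build GRCm38.p6, and 29 of the 37 genes had an entry. Capitals mark a match to 1 of 4 E2F-type motifs, TTTCGCGC, TTTGGCGC, TTTCCCGC or TTTGCCGC, on either strand. E2F factors are the transcription factors that the retinoblastoma protein holds in check.
Topbp1, chr9:103305077-103305326, plus strand: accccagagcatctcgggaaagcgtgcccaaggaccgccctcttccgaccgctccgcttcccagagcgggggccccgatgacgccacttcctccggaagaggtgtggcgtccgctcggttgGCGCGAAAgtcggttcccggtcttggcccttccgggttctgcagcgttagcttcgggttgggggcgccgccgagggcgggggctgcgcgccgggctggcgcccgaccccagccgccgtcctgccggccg
Brca2, chr5:150522371-150522620, plus strand: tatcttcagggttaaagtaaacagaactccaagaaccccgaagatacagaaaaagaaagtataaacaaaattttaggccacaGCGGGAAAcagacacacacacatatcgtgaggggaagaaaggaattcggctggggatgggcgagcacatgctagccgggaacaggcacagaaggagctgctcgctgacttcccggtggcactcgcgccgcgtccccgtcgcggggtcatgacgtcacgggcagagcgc
Fancg, chr4:43010302-43010551, minus strand: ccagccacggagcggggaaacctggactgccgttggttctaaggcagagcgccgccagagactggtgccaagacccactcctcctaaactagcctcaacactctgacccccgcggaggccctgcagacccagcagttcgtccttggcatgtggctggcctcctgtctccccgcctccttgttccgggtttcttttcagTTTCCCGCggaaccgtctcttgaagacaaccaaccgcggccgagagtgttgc
Brca1, chr11:101551956-101552205, minus strand: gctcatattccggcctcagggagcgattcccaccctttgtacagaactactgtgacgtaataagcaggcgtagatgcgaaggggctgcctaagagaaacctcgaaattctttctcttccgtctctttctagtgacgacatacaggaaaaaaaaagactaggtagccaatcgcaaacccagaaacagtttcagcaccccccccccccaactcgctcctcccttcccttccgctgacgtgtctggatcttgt
Xrcc6, chr15:82016119-82016368, plus strand: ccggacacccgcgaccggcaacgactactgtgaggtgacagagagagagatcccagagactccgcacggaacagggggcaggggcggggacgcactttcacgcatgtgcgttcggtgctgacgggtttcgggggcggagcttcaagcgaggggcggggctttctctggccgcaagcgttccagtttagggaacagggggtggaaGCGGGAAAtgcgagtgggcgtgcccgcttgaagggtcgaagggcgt

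Over the full 300 bases, which reach 50 past the start, 8 of the 29 genes with an entry held an E2F-type motif: Brca2, Bard1, Fancg, Msh6, Xrcc6, Chek2, Topbp1 and Clspn. Of 17492 protein-coding genes, 3.29% held one. The matches lay at -129 to -122 in Topbp1, -168 to -161 in Brca2, -52 to -45 in Fancg and -46 to -39 in Xrcc6, counted from the start. Among the genes called higher in transgenic glands, 4 of the 11 with an entry held a motif, and among those tested and not called, 2 of 11 did. The Brca1 window, from a gene that rose strongly, held no such match and had 1 or more CCAAT motifs, which 15 of the 29 genes and 42.3% of protein-coding genes also had. The cell cycle homology motif, TTTGAA or TTCGAA, was found in 4 of 29 genes, and in 20.2% of protein-coding genes. A match describes letters in the window and is no evidence of binding.

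The first comparison sets transgenic glands against NMRI glands at the same day of lactation. Repair and checkpoint genes were higher in the transgenic glands in 13 of 28 genes tested and lower in 0, where limma called 6.08% of all 7898 genes higher and 4.03% lower, 10.1% together. Without adjustment, 18 of the 28 were higher and 0 lower at a limma p under 0.05, against 1140 and 934 of all 7898 genes. The called genes were recombination genes (Brca1, Brca2, Rad51ap1, Rad54l, Blm, Exo1), checkpoint genes (Chek1, Hus1, Topbp1), the Fanconi gene Fancg, the mismatch gene Msh6, the postreplication gene Rad18 and the cohesin gene Rad21. The median log2 difference was 0.80 over the 28 genes and 0.01 over all genes. The groups did not overlap in 17 of the 28 genes, against 31.1% of all genes. The filter bears on these counts. Of the 13 called genes, 9 exceeded the filter signal in no NMRI gland. They were tested only because they were high in transgenic glands or tumors, a selection that favors a difference. Of the 15 genes not called, 11 exceeded it in all 3 NMRI glands and 1, Ercc1, in none. In these bulk samples more cells expressing a gene and more RNA per cell cannot be told apart, and the part of the higher proliferation markers in the rises was not tested.

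**Figure D1:**
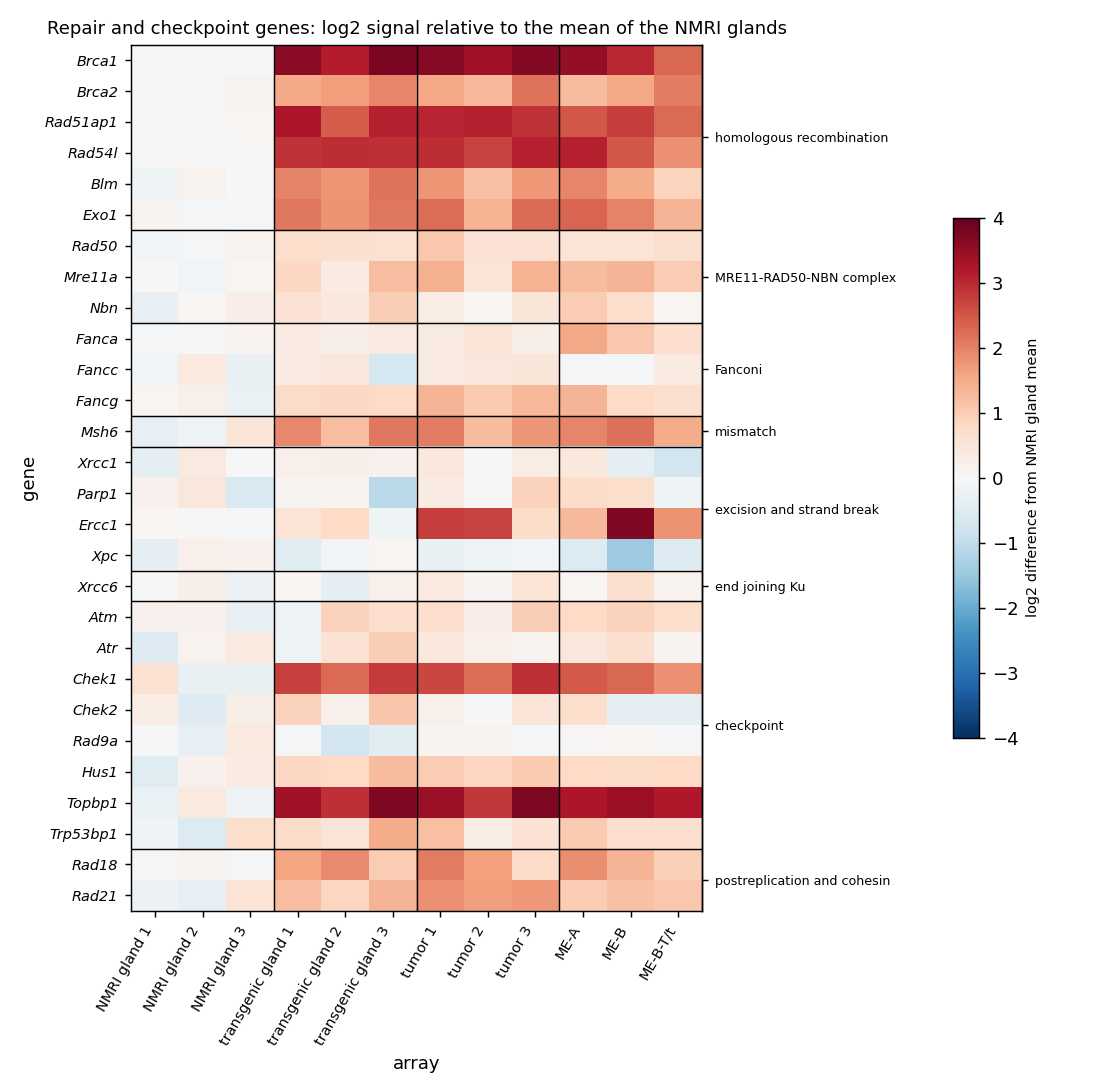
Heat map of the 28 tested genes (rows, in blocks by role) over the 12 arrays (columns, in blocks by group); color is the log2 signal minus the mean of the NMRI glands, from -4 (blue) to 4 (red). The 6 homologous recombination genes, Msh6, Chek1 and Topbp1 are red in all transgenic, tumor and line arrays, while the excision genes are paler or bluish, apart from Ercc1 in tumor 1, tumor 2 and the lines.

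All 6 tested recombination genes rose, with a median log2 difference of 2.46, of 8 measured and 9 listed. None of the 6 exceeded the filter signal in any NMRI gland, so each was tested only because it was high in transgenic glands or tumors. The measured genes Bard1 and Rad52 did not pass. Of the excision and end joining genes, Xrcc1, Parp1, Xpc and Xrcc6 exceeded the filter signal in all 3 NMRI glands. The filter thus bears on the contrast between the lists. Brca1, which directs broken ends into recombination, gave signals of 31.2, 22.0 and 11.7 in NMRI glands 1 to 3 and 699, 509 and 781 in transgenic glands 1 to 3. Every NMRI gland lay below the floor, so that Brca1 was at least 11.4-fold higher in the transgenic glands (log2 difference 3.51 ± 0.23 SE, n = 3 per group, limma adjusted p = 7.1e-06). This holds for 1 of its 3 tested probe sets. The other two differed by 0.41 ± 0.29 and 0.73 ± 0.39 on the log2 scale, with limma adjusted p = 0.414 and 0.271 when each probe set was tested on its own.

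Brca2, a mediator of recombination, gave 107, 107 and 123 in the NMRI glands and 320.0, 356 and 431 in the transgenic glands. Its log2 difference was 1.71 ± 0.26 (n = 3 per group, limma adjusted p = 0.0020), and every transgenic gland exceeded every NMRI gland. Rad51ap1, a recombination accessory factor, gave 77.8, 81.8 and 85.5 against 767, 442 and 684, a difference of 2.91 ± 0.25 (limma adjusted p = 2.9e-05). The transgenic glands spread more than the NMRI glands here, with gland 2 the lowest of them, and the groups stayed apart. One of the other two probe sets tested was not called (0.94 ± 0.39, limma adjusted p = 0.162). Rad54l, a motor protein that remodels recombining DNA, was below the floor in each NMRI gland at 55.2, 31.7 and 39.2. Its 423, 443 and 436 in the transgenic glands differed little from one another, and the gene was at least 7.55-fold higher there (2.92 ± 0.21, limma adjusted p = 1.1e-05).

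Blm, a helicase that dissolves joined recombination intermediates, gave 102, 126 and 116 in the NMRI glands and 453, 392 and 517 in the transgenic glands. Exo1, a nuclease that trims broken ends and also serves mismatch repair, gave 110.2, 96.9 and 94.7 against 434, 352 and 429. Both differed without overlap, Blm by 1.98 ± 0.25 (limma adjusted p = 0.00045) and Exo1 by 2.01 ± 0.27 (limma adjusted p = 0.00078). A second probe set of Exo1 did not overlap either but was not called on its own (0.75 ± 0.39, limma adjusted p = 0.261). All 6 recombination genes stayed called in each fit that left out 1 array.

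**Figure D2:**
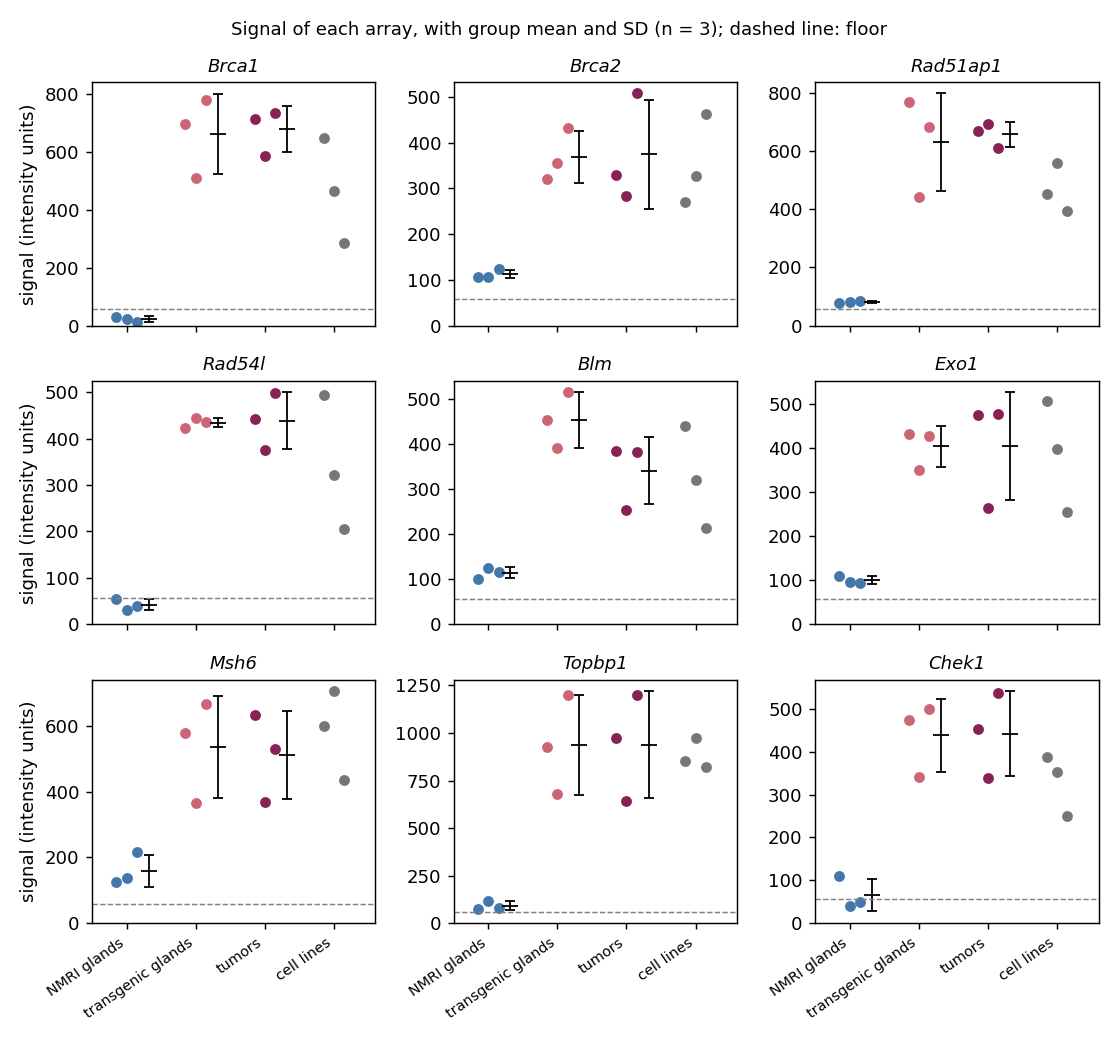
Signal in intensity units (vertical axis, linear from 0) of 9 genes in each array, by group (horizontal axis); black bars give the mean and SD of 3 arrays for the tissues, and the dashed line is the floor of 57.5. For each of the 9 genes, all 3 NMRI glands lie below all transgenic glands, tumors and lines.

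The MRE11-RAD50-NBN complex, which tethers broken ends and activates the kinase Atm, showed smaller differences, and none of its 3 genes was called. Rad50 gave 331, 347 and 399 in the NMRI glands and 579, 558 and 541 in the transgenic glands, a difference of 0.64 ± 0.23 (limma adjusted p = 0.099). Mre11a, its nuclease, gave 139.9, 129 and 146 against 244, 173 and 327 (0.80 ± 0.31, limma adjusted p = 0.136). Nbn gave 161, 216 and 242 against 305, 275 and 400.4 (0.66 ± 0.25, limma adjusted p = 0.124). The 3 genes lay above the NMRI glands in every transgenic gland.

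In the Fanconi pathway, which unhooks crosslinked strands, 1 of 3 tested genes was called. Fancg, a core complex subunit, gave 170.0, 185 and 135 in the NMRI glands and 273, 288 and 284 in the transgenic glands. The groups did not overlap, and the difference of 0.80 ± 0.22 passed the test narrowly (limma adjusted p = 0.045). Fanca, of the same complex, differed by 0.30 ± 0.20 (95% interval -0.15 to 0.75) and Fancc by 0.02 ± 0.33 (-0.69 to 0.74). A second probe set of Fancc differed by -0.82 ± 0.26, with limma adjusted p = 0.078 in the fit of each probe set, so the 2 probe sets of this gene disagree. Msh6, which recognises mismatched bases left by replication, gave 124, 137 and 216 in the NMRI glands and 579, 365 and 665 in the transgenic glands. Its difference of 1.75 ± 0.32 was called (limma adjusted p = 0.0057), with no overlap between the groups.

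At their brightest probe sets none of the 5 tested excision and end joining genes was called in either direction, also at an unadjusted limma p under 0.05, and their median log2 difference was -0.03. Xrcc1, the scaffold of single-strand break repair, differed by 0.20 (95% interval -0.34 to 0.74). Parp1, which senses strand breaks, differed by -0.29 (-1.16 to 0.58), and its other two probe sets by 0.19 and 1.14 with limma adjusted p = 0.803 and 0.114. Ercc1, part of the nuclease that cuts 5' of a bulky lesion, differed by 0.39 (-0.68 to 1.46). Xpc, which finds such lesions, differed by -0.17 (-0.74 to 0.40), and Xrcc6, the other Ku subunit, by -0.03 (-0.57 to 0.51). At these brightest probe sets the groups overlapped in all 5 genes. They did not at the third probe set of Parp1, the one that differed by 1.14 ± 0.41, which gave 234, 163 and 81.4 in the NMRI glands and 317, 304 and 345 in the transgenic glands. In the limma fit of each probe set this difference passed 0.05 before adjustment and not after it.

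In each array, the mean log2 signal of the 8 measured recombination genes minus that of the 7 measured excision and end joining genes was -1.30, -1.59 and -1.20 across the NMRI glands, with 0.47, 0.37 and 0.66 across the transgenic glands. The group means were -1.36 ± 0.20 and 0.50 ± 0.15 (SD, n = 3), a difference of 1.86 given as a description, since the genes were chosen with earlier results known. The size depended on the choice of probe sets: with the mean of a gene's probe sets in place of its brightest, the difference was 1.14.

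Among the checkpoint genes, 3 of 8 tested were called. Topbp1, which activates the kinase Atr at stalled forks, gave 74.4, 119 and 82.2 in the NMRI glands and 926, 678 and 1201 in the transgenic glands. With a log2 difference of 3.34 ± 0.32 (limma adjusted p = 6.1e-05) its groups did not overlap. Chek1, the kinase that Atr activates, gave 109, 41.0 and 49.2 against 473, 340.45 and 499, and NMRI glands 2 and 3 lay below the floor. It differed by 2.60 ± 0.31 (limma adjusted p = 0.00036). Hus1, a subunit of the checkpoint clamp, gave 82.0, 129 and 143 against 204, 198 and 276, a difference of 0.96 ± 0.27 with limma adjusted p = 0.049. A second probe set of Hus1 was lower, with 98.3, 89.1 and 58.4 against 58.5, 69.5 and 27.7, and with the mean of both Hus1 differed by 0.29 (limma adjusted p = 0.319).

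The other clamp subunit tested, Rad9a, differed by -0.41 ± 0.27 and was not called. Neither apical kinase was called, with 0.46 ± 0.33 for Atm and 0.46 ± 0.33 for Atr. Chek2, the kinase downstream of Atm, gave 444, 251 and 426 in the NMRI glands and 686, 419.7 and 781 in the transgenic glands, and the groups overlapped (0.75 ± 0.31, limma adjusted p = 0.157). Trp53bp1, which steers broken ends to end joining, differed by 0.90 ± 0.38 (limma adjusted p = 0.159). With the gland number as a block and only the gland arrays in the fit, Chek2 and Trp53bp1 were called (limma adjusted p = 0.049 and 0.027) and Fancg was not (0.055).

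Rad18, which marks stalled forks for bypass of damage, gave 13.8, 67.3 and 47.0 in the NMRI glands, where glands 1 and 3 lay below the floor, and 179, 224 and 123 in the transgenic glands. Its difference was 1.49 ± 0.36 (limma adjusted p = 0.024). A second probe set of Rad18 overlapped, with 83.6, 88.3 and 61.3 against 152, 110 and 58.2. With the mean of both Rad18 was not called (0.93, limma adjusted p = 0.075). It was also not called with a floor at the 40th percentile (limma adjusted p = 0.112) or with no filter (0.063). Rad21, a subunit of the cohesin ring that holds sister chromatids together, gave 591, 562 and 1034 against 1646, 1278 and 1795. It differed by 1.15 ± 0.27 (limma adjusted p = 0.019) without overlap. Neither of the other probe sets of Rad21 was called on its own. They differed by 1.79 ± 0.51 with overlap (limma adjusted p = 0.055) and by 0.92 ± 0.29 without it (0.077). Fancg and Hus1 were called in 0 of the 9 fits that left out 1 tissue array, with limma adjusted p from 0.050 to 0.133 for Fancg and 0.052 to 0.195 for Hus1. Rad18 lost its call without any single NMRI gland or without transgenic gland 1 or 2 (0.066 to 0.097), and Rad21 without NMRI gland 1, NMRI gland 2 or transgenic gland 1 (0.063 to 0.088).

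The Gapdh ratio moved with the gland number, at 12.9 and 10.7 in the glands numbered 1, 2.28 and 2.49 in those numbered 2, and 40.3 and 22.5 in those numbered 3. Within each number all 13 called genes were higher in the transgenic gland. This had to follow, since the groups did not overlap in any of these genes, and it adds no separate evidence. The median difference of the 6 recombination genes was 2.52, 2.15 and 2.55 for the glands numbered 1, 2 and 3, and was smallest for number 2, which had the lowest ratios. With the ratio as a covariate 14 of the 28 genes were called higher, against 598 higher and 414 lower of all 7898 genes. Without the glands numbered 3, a comparison chosen after seeing the data, 10 of the 28 were called higher, the 6 recombination genes among them. Of all 7594 genes in that fit, 367 were higher and 179 lower.

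The second comparison set the tumors against the transgenic glands. None of the 28 genes was called in this limma fit, where 2.95% of all genes were. At an unadjusted limma p under 0.05, 2 were higher and 0 lower, against 605 and 692 of all 7898 genes. Those 2 were Ercc1 and Rad21. The groups did not overlap in 3 genes, Blm, Fancg and Rad21, against 19.7% of all genes. The median log2 difference was 0.03 over the 28 genes, -0.01 over the 6 recombination genes and 0.38 over the 5 excision and end joining genes.

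At their brightest probe sets the tumors overlapped the transgenic glands in all recombination genes tested but Blm. The 95% intervals bound the differences of those probe sets only. Brca1 gave 714, 588 and 736 in tumors 1 to 3, a difference of 0.05 with a 95% interval of -0.46 to 0.56. Its other tested probe sets differed by 1.04 ± 0.39, outside that interval, and by -0.42 ± 0.29. Neither was called on its own (limma adjusted p = 0.236 and 0.528). Brca2 gave 329.6, 283 and 509, a difference of -0.02 (-0.60 to 0.57). Rad51ap1 gave 670.1, 691 and 611, a difference of 0.10 (-0.45 to 0.64), and its other tested probe sets differed by -0.03 and 0.32.

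Rad54l gave 442, 375 and 498 in the tumors (0.01, -0.46 to 0.47), on both sides of the transgenic glands. Its other tested probe sets differed by -0.42 and -0.24. Blm gave 386, 255 and 383, all below the transgenic glands, but the difference of -0.43 (-0.97 to 0.11) was not called (limma adjusted p = 0.426). Exo1 gave 475, 264 and 479 (-0.04, -0.64 to 0.56). A second probe set of Exo1 differed by 0.79 ± 0.39 with overlap (limma adjusted p = 0.379 on its own). At the brightest probe sets tumor 2 was the lowest tumor for Brca1, Brca2, Rad54l, Blm and Exo1, though not for Rad51ap1.

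Ercc1 stood apart among the excision genes. It gave 123, 120.1 and 110.4 in the NMRI glands, 173, 205 and 104 in the transgenic glands, and 799, 773 and 195 in tumors 1 to 3. Tumors 1 and 2 were far above every gland, while tumor 3 lay within the range of the transgenic glands. The difference of 1.68 ± 0.49 was not called (limma adjusted p = 0.105), and without tumor 3 it was 2.35 with limma adjusted p = 0.0054. Parp1 gave 678, 826 and 394 in the NMRI glands, 655, 649 and 284 in the transgenic glands and 752, 630.2 and 1137 in the tumors. Its difference between tumors and transgenic glands was 0.72 ± 0.40 (limma adjusted p = 0.406), and the groups overlapped. Its other two probe sets differed by 0.32 and -0.05. Rad21 gave 2494, 2253 and 2311 in the tumors, each above the transgenic glands, a difference of 0.59 ± 0.27 that was not called (limma adjusted p = 0.298).

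**Figure D3:**
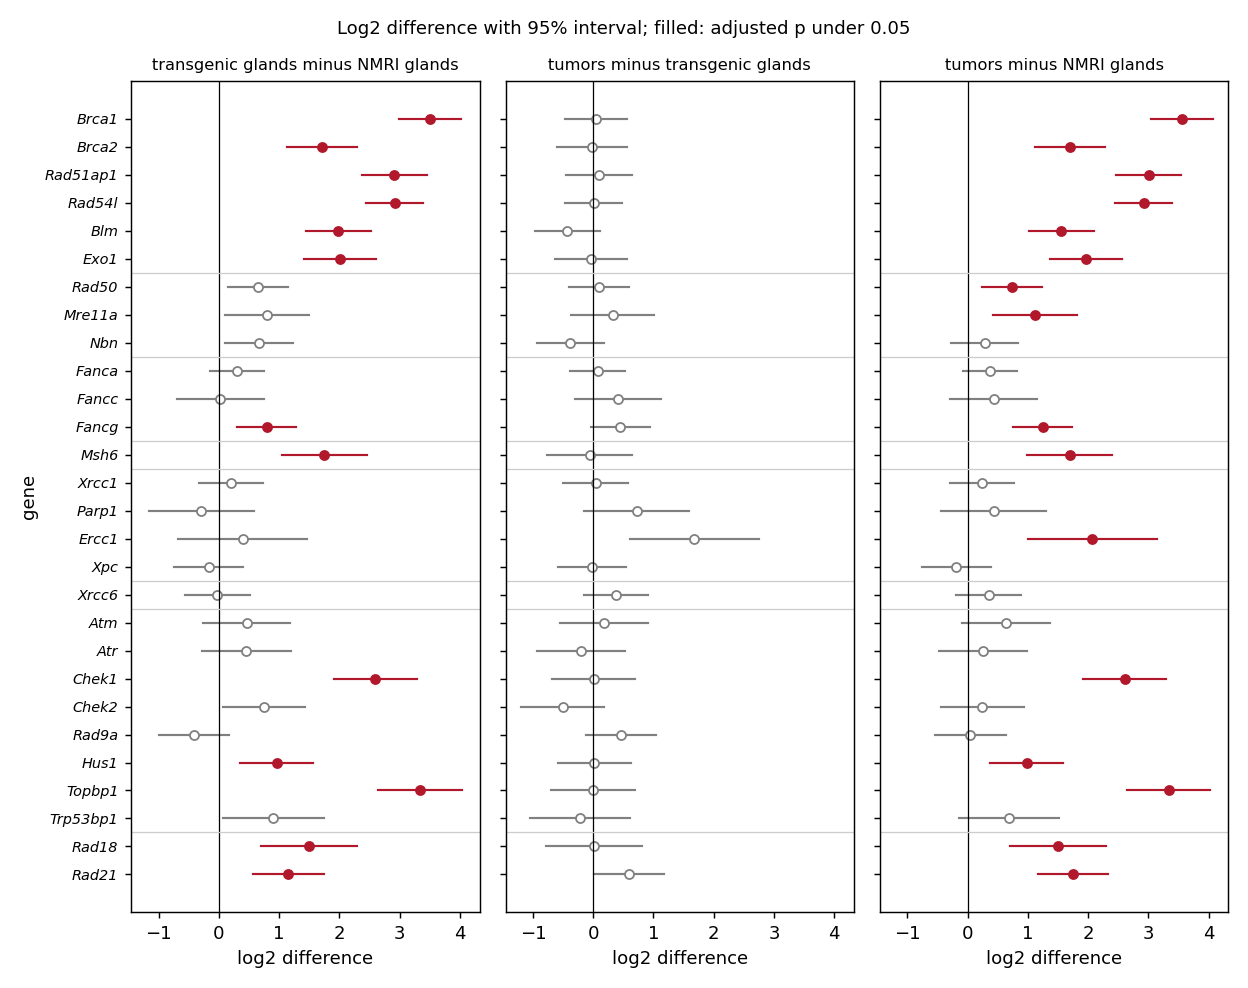
Log2 difference (horizontal axis) with its 95% interval for the 28 tested genes (rows, in blocks by role) in the 3 tissue comparisons; filled red points were called at a limma adjusted p under 0.05 and open gray points were not. The calls are 13 in the left panel, 0 in the middle and 16 on the right, all to the right of 0.

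Set against the NMRI glands, the tumors were higher in 16 of the 28 genes and lower in 0, where limma called 12.9% of all genes higher and 11.6% lower. This comparison shares its NMRI glands with the first and its tumors with the second, so it is no separate evidence. The groups did not overlap in 18 genes, against 43.9% of all genes. All 13 genes called in transgenic glands were called here too, and the added 3 were Rad50, Mre11a and Ercc1.

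The recombination genes gave 6 of 6 again, with a median of 2.44. The same limit holds here, since none of the 6 exceeded the filter signal in any NMRI gland. Their differences in tumors and in transgenic glands, against the same NMRI glands, were 3.56 and 3.51 for Brca1, 1.69 and 1.71 for Brca2, 3.01 and 2.91 for Rad51ap1, 2.92 and 2.92 for Rad54l, 1.55 and 1.98 for Blm, and 1.96 and 2.01 for Exo1. A second probe set of Brca1 was also called in tumors (1.77 ± 0.39, limma adjusted p = 0.0090 in the fit of each probe set), and the remaining one was not (-0.01 ± 0.29). Outside recombination, Topbp1 differed by 3.34 in both, Chek1 by 2.61 and 2.60, and Msh6 by 1.69 and 1.75. In the tumors Msh6 gave 633, 369 and 531, Topbp1 974, 641 and 1200.2, and Chek1 452, 338 and 535. Tumor 2 was again the lowest of the 3 in each.

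Fancg gave 419.96, 333 and 405 in the tumors, and its difference from the NMRI glands was 1.25 ± 0.22 (limma adjusted p = 0.0025). Hus1 gave 233, 209 and 238 (0.98 ± 0.27, limma adjusted p = 0.024), and Rad18 gave 257, 189 and 104 (1.501 ± 0.36, limma adjusted p = 0.012). The difference of Rad21 was 1.75 ± 0.27 (limma adjusted p = 0.00094). Rad18 lost its call with a floor at the 40th percentile (limma adjusted p = 0.067) and with the Gapdh ratio as a covariate (0.055).

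Rad50 gave 758, 532 and 534 in the tumors, above every NMRI gland, and was called at a small difference of 0.74 ± 0.23 (limma adjusted p = 0.034). Its second subunit Mre11a gave 373, 199 and 362 (1.12 ± 0.31, limma adjusted p = 0.024), while the third, Nbn, gave 251, 215 and 282, overlapped the NMRI glands and was not called (0.28 ± 0.25, limma adjusted p = 0.447). Ercc1 was the 1 of 5 excision and end joining genes called (2.07 ± 0.49, limma adjusted p = 0.011). Rad50 lost its call without NMRI gland 1, 2 or 3 or tumor 1 (limma adjusted p = 0.054 to 0.124), with quantile normalization (0.074) and with median scaling (0.077). With the mean of its probe sets the difference of Rad50 was 0.13 (limma adjusted p = 0.615), since its second probe set, near or below the floor, ran the other way with 73.1, 91.9 and 92.8 in the NMRI glands and 32.7, 61.4 and 65.0 in the tumors. Mre11a lost it without any NMRI gland, tumor 1 or tumor 3 (0.055 to 0.084), and Hus1 without NMRI gland 1, tumor 1 or tumor 3 (0.063 to 0.104). With the mean of its probe sets Hus1 differed by 0.42 and was not called (limma adjusted p = 0.101).

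Of the genes not called in this comparison, Xrcc1 differed by 0.24 ± 0.24, Xpc by -0.19 ± 0.26 and Xrcc6 by 0.35 ± 0.24. Atm differed by 0.64 ± 0.33 without overlap, Atr by 0.25 ± 0.33, Chek2 by 0.24 ± 0.31 and Rad9a by 0.05 ± 0.27. Trp53bp1 differed by 0.69 ± 0.38 (limma adjusted p = 0.209). With the Gapdh ratio as a covariate it was called (limma adjusted p = 0.0088).

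**Figure D4:**
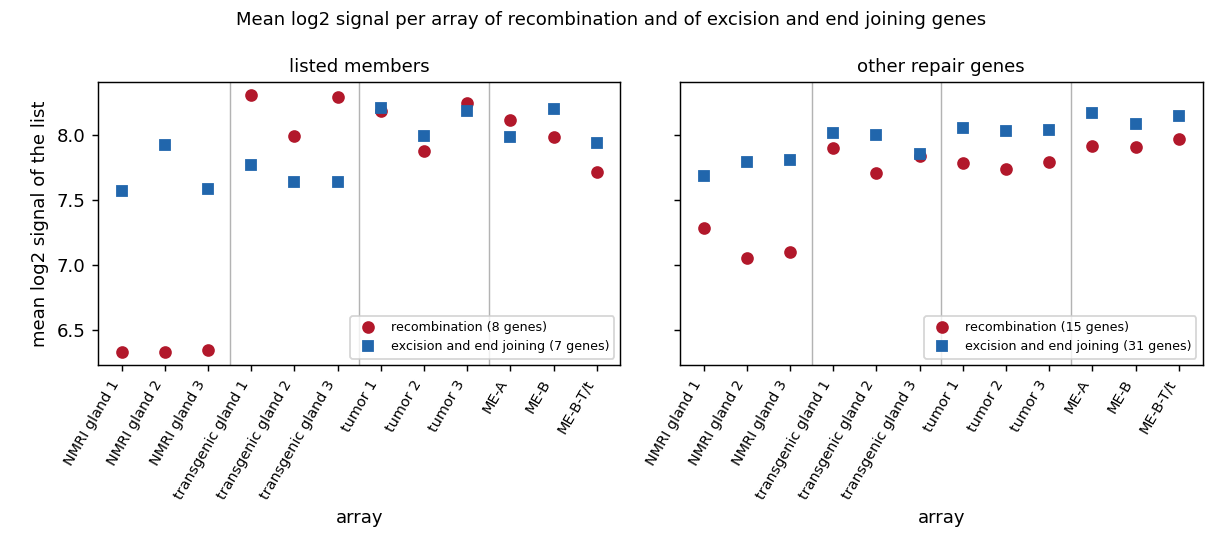
Mean log2 signal per array (vertical axis) of the recombination genes (circles) and of the excision and end joining genes (squares), for the genes described here (left) and for other repair genes (right), with vertical lines between the groups; all measured genes enter, at their brightest probe set over the 12 arrays. On the left the circles lie below the squares in the 3 NMRI glands, above them in the 3 transgenic glands, and close to them in the tumors and lines. On the right the circles lie below the squares in all 12 arrays, most narrowly in transgenic gland 3 (7.84 against 7.85).

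The recombination minus excision difference per array was 0.03, -0.05 and 0.10 in tumors 1 to 3, with a mean of 0.03 ± 0.07 (SD, n = 3). It was thus lower than in each transgenic gland, by 0.47 in the mean, and higher than in each NMRI gland, by 1.39. These differences take each gene's brightest probe set over the 9 tissue arrays, which for some genes is another one than in the plot of means by array, so values this close to 0 can differ in sign from the plotted gap.

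Within the groups, the genes that rose were not evenly spread. Of the 16 genes called in either comparison with NMRI glands, 13 were lowest in tumor 2 among the tumors, where 35.02% of all genes were. All 5 proliferation markers were also lowest in tumor 2. Transgenic gland 2 was the lowest transgenic gland in 10 of the 16, against 32.4% of all genes and 2 of 5 proliferation markers. Its B cell markers averaged 8.88 on the log2 scale, against 6.61 and 6.82 in the other transgenic glands, and its T and NK cell markers 8.19 against 6.23 and 6.74. Of the 4 measured B cell markers, Cd79b was at the floor in 8 of 12 arrays, and of the 5 T and NK cell markers, Cd3d in 11. The part of these cells in the lower values was not tested.

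Skeletal muscle and adipocyte markers were higher in tumor 1 than in the other tumors, at 9.98 against 5.96 and 5.88 and at 10.4 against 6.96 and 7.11. The 5 muscle markers averaged 10.01 to 11.1 in the NMRI glands, and 6.76, 6.91 and 10.9 in the transgenic glands. By group, limma called all 4 milk secretion markers lower in tumors than in either gland group, and 2 of 4 lower in transgenic than in NMRI glands. The 3 tested adipocyte markers were lower in tumors than in either gland group. Against NMRI glands 3 of 5 macrophage markers were higher in tumors and 3 of 4 endothelial markers lower, and all 5 macrophage markers were lower in the lines than in tumors. The part of these markers in the repair values was not tested.

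The third comparison set the 3 cell lines against the 3 tumors. None of 29 genes tested was called by limma, where 2.30% of all 7346 genes were (0.422% higher and 1.88% lower). At an unadjusted limma p under 0.05 Fanca was higher and Rad21 lower, against 508 higher and 721 lower among all genes. Groups did not overlap in 5 genes (Rad51ap1, Fanca, Xpc, Hus1 and Rad21), against 23.5% of all genes. Fanca gave 899.5 in ME-A, 658 in the ME-B line and 492 in ME-B-T/t against 399.7, 446 and 369.9 in the tumors, a difference of 0.71 ± 0.28 (limma adjusted p = 0.265). Rad21 gave 1415, 1575 and 1483 in the lines, a difference of -0.66 ± 0.17 (limma adjusted p = 0.108). The lines are different lines and not replicate cultures, so the spread in this fit includes their own differences.

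Each of the 6 recombination genes had a higher signal in all 3 lines than in any NMRI gland, with no test made. Brca1 gave 651 in ME-A, 467 in the ME-B line and 285 in ME-B-T/t, Rad54l 495, 321 and 205, and Blm 441, 321 and 214. All 3 were highest in ME-A and lowest in ME-B-T/t, and ME-B-T/t lay below every tumor for each. Outside recombination ME-B-T/t also lay below every tumor for several genes, among them Xrcc1, Parp1, Xpc, Chek1 and Chek2. Exo1 had the same order, with 507, 399.8 and 256. Brca2 ran the other way, with 269, 327 and 462, and Rad51ap1 gave 453, 560.2 and 394. Of the 16 genes called against NMRI glands, ME-B-T/t was the lowest line in 11, against 32.9% of all genes and 4 of 5 proliferation markers.

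**Figure D5:**
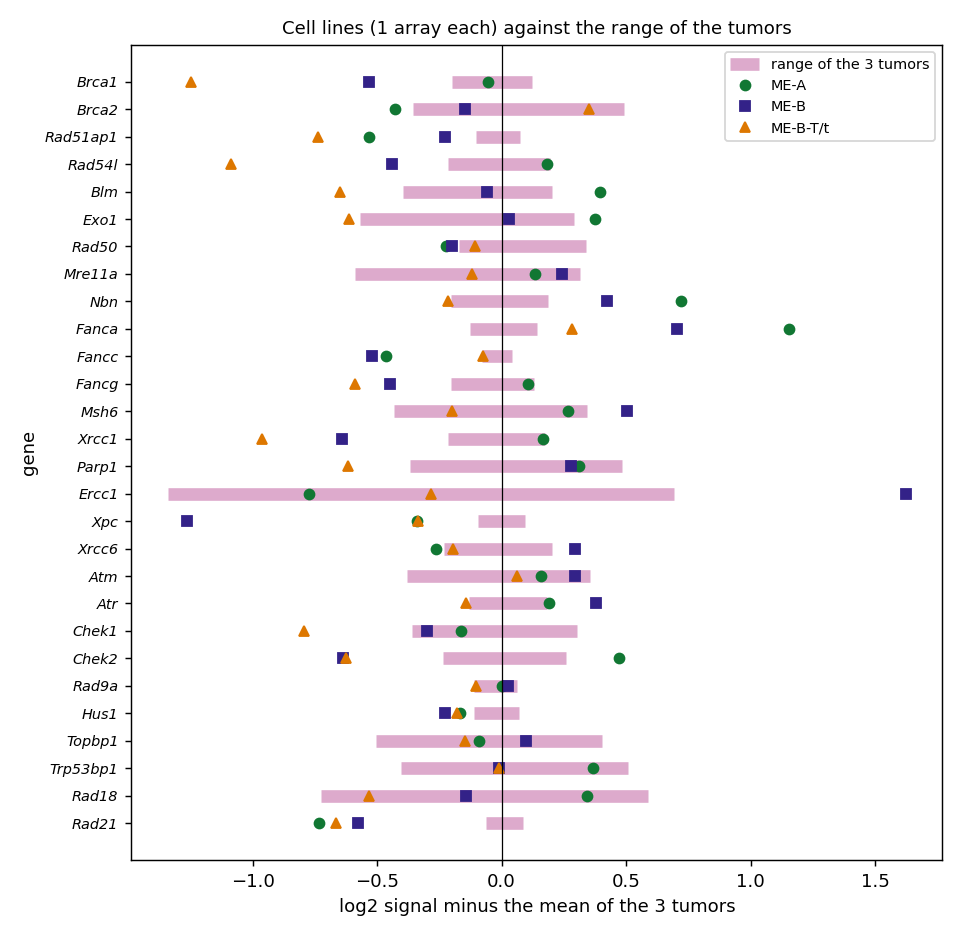
Log2 signal of the 28 genes in the 3 lines (1 array each) minus the mean of the 3 tumors (horizontal axis), with the range of the tumors as a bar. ME-B-T/t lies left of the tumor range for the recombination genes Brca1, Rad51ap1, Rad54l, Blm and Exo1. It also does so for Fancg, Xrcc1, Parp1, Xpc, Chek1, Chek2, Hus1 and Rad21, and narrowly for Nbn and Atr. ME-B lies far right for Ercc1 and far left for Xpc.

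With 1 array per line there is no test between lines, and a gene is named when it differed by 2-fold or more. ME-B differed from both other lines in 1 of 31 genes compared, where 1.33% of all genes were higher by this rule and 2.30% lower. That gene was Ercc1, at 1521 in ME-B against 289 in ME-A and 406 in ME-B-T/t. Chek2 was the 1 gene at least 2-fold lower in ME-B than in ME-A and Ercc1 the 1 higher, against 10.9% and 8.76% of all genes. From ME-B to ME-B-T/t, 1 gene, Ercc1, was lower and 0 higher, against 4.88% and 7.51% of all genes. Xpc, a gene of the same excision pathway, was lowest in ME-B at 78.7 against 149 and 149.5, just short of 2-fold.

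Between ME-B-T/t and ME-A, 5 of 31 genes were lower and 1 higher in ME-B-T/t, against 11.5% and 12.6% of all genes. The lower genes were Brca1 (2.28-fold), Rad54l (2.41-fold), Blm (2.06-fold), Xrcc1 (2.19-fold) and Chek2 (2.14-fold), and Xpa was 2.47-fold higher. Chek2 gave 595 in ME-A, and its 276 in ME-B lay close to 278 in ME-B-T/t. In the same order Nbn gave 408, 332 and 214, and Xrcc1 gave 383, 218 and 175. The recombination minus excision difference per line was 0.09 in ME-A, -0.26 in the ME-B line and -0.26 in ME-B-T/t. The luminal markers of ME-B-T/t and of ME-B lay near the floor, as given above, and the part of this in the differences was not tested.

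Other repair genes, 95 listed by pathway with 66 measured and 54 tested in tissue, were read the same way. In transgenic glands 15 were higher and 1 lower, beside the 6.08% and 4.03% of all genes. Other recombination genes gave 5 of 12 higher and 0 lower, and other excision and end joining genes 3 of 25 higher and 1 lower. The filter bears on these counts too. In the NMRI glands Fignl1 gave 3.93 to 21.7, Eme1 40.9 to 45.3 and Recql4 29.8 to 102, all under the filter signal. These recombination genes were tested only because they were high in transgenic glands or tumors. The 3 with the smallest p were Fignl1, Timeless and Tipin. Fignl1, a recombination factor, was below the floor in the NMRI glands (12.3 ± 8.91, SD, n = 3) and gave 628 ± 226 in the transgenic glands, so that it was at least 10.4-fold higher there (log2 difference 3.38, limma adjusted p = 2.9e-05). A second probe set of Fignl1 was lower in the transgenic glands, at 85.6 to 139 against 147 to 177. Timeless and Tipin form a complex that protects replication forks. Timeless was below the floor in every NMRI gland and at least 8.71-fold higher in the transgenic glands (3.12, limma adjusted p = 0.00018), while Tipin, measured in both, differed by 2.46 (limma adjusted p = 0.00030).

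The 3 excision genes that rose were Neil3 (2.06), a glycosylase, Mbd4 (1.71), also a glycosylase, and Gtf2h4 (1.30), a subunit of the general factor TFIIH, so excision genes are not without exception. Ercc5, the nuclease that cuts 3' of a lesion, was the gene that fell (-0.80, limma adjusted p = 0.044). Between tumors and transgenic glands only Rad51c was called among the 54, where 1.24% of all genes were called higher. Rad51c, a recombination gene, gave 46.2, 59.4 and 41.4 in the transgenic glands, where 2 of 3 lay below the floor, and 180.5, 169 and 243 in the tumors. Its log2 difference of 1.74 ± 0.28 (limma adjusted p = 0.0085) rests on the floor for those 2 glands. Among the lines it gave 309 in ME-A, 124 in ME-B and 297 in ME-B-T/t, and so was lower in ME-B than in both others.

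Against NMRI glands, 19 of the 54 were higher in tumors and 2 lower, beside 12.9% and 11.6% of all genes. The filter bears on this count in the same way. Fignl1, Timeless and Tipin again had the smallest p, with log2 differences of 3.36, 3.20 and 2.62 (limma adjusted p = 1.7e-05, 9.2e-05 and 0.00011), the first 2 against NMRI glands at the floor. Polb, the polymerase of base excision repair, fell by 1.52 on the log2 scale, from 1331 ± 359 to 460.0 ± 89.0 (SD, n = 3, limma adjusted p = 0.0031). Rad51b, also a recombination gene, fell by 1.00 (limma adjusted p = 0.024). Between the lines and the tumors, limma called 0 of 55 other repair genes. At an unadjusted limma p under 0.05, 3 were higher and 2 lower, against 508 and 721 of all 7346 genes.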

How the data were processed

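The authors deposited 1 table of signals for 12 arrays and 22690 probe sets, summarised with MAS5 per the submitters' processing notes. These intensity values are linear. Which target the MAS5 scaling used is unknown. The number of arrays limits the precision, as do signals at the floor and differences between probe sets of the same gene. Groups came from the sample labels, with 3 arrays each. Genes were named through GEO's platform annotation: 20380 probe sets had 1 gene symbol, 691 several and 1555 none, and 20351 symbols were updated by Entrez identifier.

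Each array was scaled to a common mean trimmed by 2% at each end. The ratio of the highest to the lowest trimmed mean was 1.19. Signals were floored at the 30th percentile (57.5), genes were kept above the median (139.9) on 3 or more arrays, and each gene was represented by its brightest probe set in that fit. Log2 values computed from the deposited signals were tested with limma 3.58.1 (intensity trend) in R 4.3.3. The 9 tissue arrays shared a fit of 7898 genes, and the lines and tumors a fit of 7346. P-values were adjusted over all genes of a fit, and other settings are compared below. The fit was tested on simulated data, with 100 genes changed 2-fold and 100 changed 4-fold. Of these, 21% and 82% were recovered for transgenic against NMRI glands, and 6% and 53% for lines against tumors. Of all genes called in the simulation, 8.04% in the first comparison and 10.6% in the second had not been changed.

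The members, gene lists and motifs were chosen with earlier results of these data known. The genes named are the 37 members, with values by array for those called in any comparison, and the 3 other repair genes of smallest p among those called in each direction; Neil3, Mbd4, Gtf2h4, and the values of Rad51c in the lines, were added after their values were seen. Deviations of same-numbered NMRI and transgenic glands from their group means correlated at 0.22, 0.37 and 0.37. The numbers come from the titles, which do not say whether a number marks a pair or a batch. The main fit left them out, and a fit with the number as a block is given below. With the same-numbered tumors the correlations ran from -0.17 to 0.33, and between differently numbered arrays from -0.34 to 0.34. Promoters are RefSeq entries.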

Additional observations from a re-analysis of the deposited data

How the results depend on the processing

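Under every setting tried, each of the 6 recombination genes, Chek1, Topbp1 and Msh6 stayed called in both comparisons with NMRI glands, with each probe set on its own through at least 1 probe set. Leaving out 1 array gave 9 to 11 genes called in transgenic against NMRI glands and 0 to 1 in tumors against transgenic glands (1, Ercc1, without tumor 3). It gave 13 to 17 in tumors against NMRI glands and 0 to 0 in lines against tumors. Among all genes in those fits, 280 to 479 were higher and 114 to 326 lower in transgenic against NMRI glands. In tumors against transgenic glands 28 to 115 were higher and 41 to 164 lower. In tumors against NMRI glands 699 to 1189 were higher and 529 to 1085 lower. In lines against tumors 0 to 239 were higher and 0 to 546 lower. Recombination genes called ranged 6 to 6, 0 to 0, 6 to 6 and 0 to 0, and excision and end joining genes 0 to 0, 0 to 1, 1 to 1 and 0 to 0. The recombination minus excision difference ranged 1.75 to 1.94, -0.54 to -0.39, 1.28 to 1.47 and -0.29 to -0.08. With an offset of 50 in place of the floor it was 1.56 (transgenic against NMRI) and 1.16 (tumors against NMRI), and with the mean of probe sets 1.14 and 0.71.

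In tumors against NMRI glands 0 excision and end joining genes were called with no filter, where Ercc1 had limma adjusted p = 0.055, and 0 with a filter at the 60th percentile, where Ercc1 was not tested. With each probe set on its own 2 members passed 2-fold in ME-B, and at 4-fold 0 did. Fancc in tumors against NMRI glands turned to -0.83 through its other probe set, with limma adjusted p = 0.042 with each probe set, 0.024 with only the 2 groups in the fit and 0.044 without transgenic gland 2; leaving out 1 array gave -0.87 to 0.63. With the replicate block, 12, 1 and 16 genes were called in the 3 tissue comparisons, the 1 being Ercc1 (limma adjusted p = 0.043), which is also the 1 excision and end joining gene. Among all 7898 genes that block gave 549 higher and 381 lower, 132 and 151, and 1152 and 1000 in the same order. The block in the glands alone gave 13, against 664 higher and 511 lower of all 7465 genes. The causes were not tested.

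With no scaling the median of all genes in transgenic against NMRI glands was 0.11, and 584 genes were higher and 236 lower, against 480 and 318; the members' calls there stayed at 13 and 0. All genes called in tumors against transgenic glands fell from 98 higher and 135 lower to 40 and 31 with no filter and 50 and 48 with the Gapdh covariate.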
